A study of Mus musculus with 6 samples.

Results

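The genes described here are 39 genes of cholesterol synthesis, uptake and efflux, taken by symbol from a list of the pathway's members that does not cover every gene of the pathway. All 39 were among the 25124 genes with deposited values, and 37 were abundant enough to test. They were measured in RAW264.7 cells, a mouse macrophage-like line, kept in medium with 25 mM glucose and 10% serum and used below 15 passages. The M2 group, 3 libraries, received IL-4 at 10 ng/ml to polarize the cells toward the alternatively activated state, and the M0 group, 3 libraries, received no IL-4. Both groups were control cells that had been given a Cas9 plasmid carrying no guide RNA, made as the counterpart of an E4BP4 knockout line. The sources used here do not give how long IL-4 was present or whether the control line is 1 clone. They do not say either that the replicates were separate cultures, so the p-values reflect the variation of these libraries alone, which may be technical. The labels of all 3 M0 libraries, and of no M2 library, carry a re-analysis note, and any batch behind it cannot be told apart from IL-4.

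Cells make cholesterol from acetyl-CoA through mevalonate, squalene and lanosterol. The transcription factor SREBP2 drives most of these enzyme genes when sterol in the endoplasmic reticulum is low, because SCAP then escorts it to the Golgi, where it is cut free, while INSIG proteins hold it back when sterol is plentiful. When cells hold surplus cholesterol, oxysterols activate the nuclear receptors LXR alpha (Nr1h3) and LXR beta (Nr1h2), which pair with RXR and raise genes of efflux such as Abca1 and Abcg1. Macrophages depend on both arms, since they take up lipoproteins and dead cells and release the cholesterol through NPC proteins of the lysosome.

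From 200 ng of total RNA per sample, poly(A) transcripts were sequenced, and the reads behind the values came to 18139902 to 19511192 in the M2 libraries and 15615639 to 18110568 in the M0 libraries. The macrophage markers chosen for the check of the cell type, 8 of 8, reached at least 1 TPM (a level scaled for transcript length and library depth). The receptor gene Csf1r, for example, had 243 to 295 TPM in M2 and 240.3 to 256 TPM in M0. Adgre1 was much lower, at 5.981 to 6.274 TPM in M2 and 2.149 to 3.075 TPM in M0. In the comparison described below, Adgre1 and Fcgr1 were called higher in M2 and Itgam and Ptprc lower, while Cd68, Csf1r, Spi1 and Lyz2 were not called (43.7% of all genes tested were called). Of the 24 markers of 7 other cell types only S100a8, at 4.12 to 5.64 TPM in M2 and 4.43 to 5.85 TPM in M0, reached that level. A library that stands apart is M2 replicate 3, where long transcripts were low. This was measured over genes with a model above 4000 bases and a mean of at least 5 TPM. There its level lay a median of 0.28 below the mean of the other M2 libraries on log2(TPM + 1). The next largest such difference was 0.17 above, in M2 replicate 2, against a mean that includes M2 replicate 3. Results that move with that library are given with and without it.

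Members differed between the groups mostly by small amounts. With limma on log2(TPM + 1) and Benjamini-Hochberg adjustment over all genes, 13 of the 37 members tested were called at an adjusted p under 0.05, 8 higher and 5 lower in M2. That is 35.1% of them, while 43.7% of all 11202 genes tested were called, 20.1% higher and 23.7% lower. Log2 fold changes of M2 over M0, on log2(TPM + 1), ran from -1.22 (Abca1) to 0.77 (Apoe), with a median of 0.04 over the 37 members and -0.03 over all genes tested. The groups did not overlap for 18 of the 37 members (55.9% over all genes tested). Abca1 was the only member past 2-fold on that scale, a size that 2.45% of all genes reached with a call, and it ranked 74 among the 2651 genes called lower. In these bulk samples a smaller share of cells that hold a transcript and less of it per cell cannot be told apart.

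**Figure D1:**
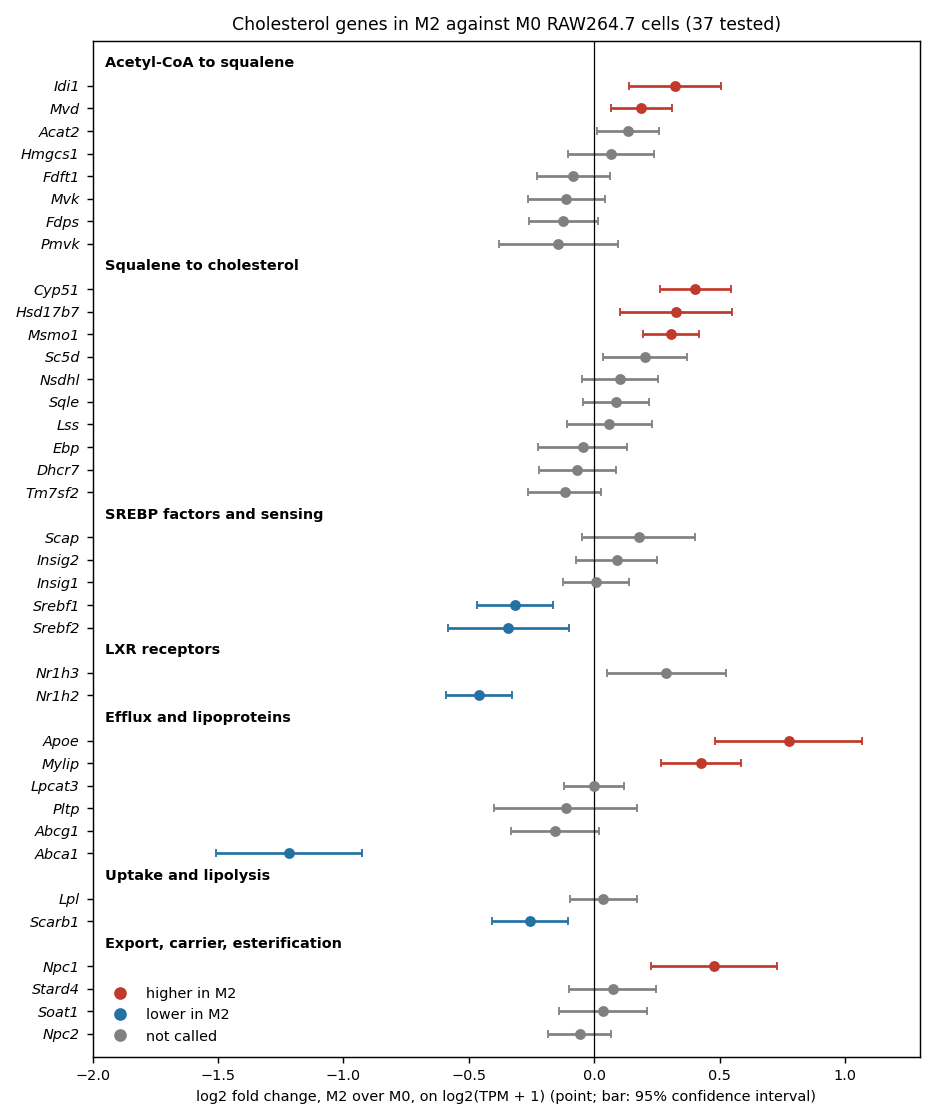
Log2 fold change of M2 over M0 (horizontal axis, on log2(TPM + 1)) for the 37 members tested, grouped by role and ordered by size within a role. Points are limma estimates and bars 95% confidence intervals, red for called higher, blue for called lower and grey for not called. Abca1, at -1.22, stands apart from the other members, and the grey intervals of most enzymes cross 0.

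Promoter stretches of the genes on which the results turn are shown first, since SREBP and LXR are known for the short DNA words they bind. RefSeq windows of 300 bases (build GRCm38.p6, the assembly of mm10) existed for 30 of the 39 members, and for 29 the start site was that of the transcript model in the authors' file. Each stretch below ends at the base before the start site and reads 5′ to 3′ along the gene. The first is that of Abca1, the largest fall. Capitals mark a DR4, the word AGGTCA repeated after any 4 bases, which LXR reads with RXR, with up to 3 mismatches on either strand.
Abca1, chr4:53159896-53160015, minus strand: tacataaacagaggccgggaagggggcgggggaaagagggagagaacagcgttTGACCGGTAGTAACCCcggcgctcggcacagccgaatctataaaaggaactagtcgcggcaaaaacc
The match, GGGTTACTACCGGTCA on the opposite strand, lies within 67 bases of the start, and the human ABCA1 promoter is known for an LXR element of this kind. Such matches are common: 21.9% of all 32851 promoter windows hold one at up to 3 mismatches, and 5 of the 29 member windows.

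The next stretches belong to the 5 synthesis enzymes that rose and to 2 genes known as SREBP targets that did not, Hmgcs1 and Srebf2. Capitals mark the sterol regulatory element known as SRE-1, a word of 10 bases, with up to 2 mismatches on either strand, and the CCAAT box of NF-Y, a factor that works beside SREBP, which reads ATTGG where it lies on the opposite strand.
Cyp51, chr5:4104698-4104847, minus strand: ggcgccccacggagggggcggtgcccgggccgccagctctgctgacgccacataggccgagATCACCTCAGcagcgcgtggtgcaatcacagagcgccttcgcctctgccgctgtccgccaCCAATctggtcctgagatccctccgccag
Msmo1, chr8:64733579-64733748, minus strand: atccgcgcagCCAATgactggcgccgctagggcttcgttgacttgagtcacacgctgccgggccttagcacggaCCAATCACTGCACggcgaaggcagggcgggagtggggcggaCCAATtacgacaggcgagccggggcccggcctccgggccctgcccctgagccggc
Hsd17b7, chr1:169969206-169969375, minus strand: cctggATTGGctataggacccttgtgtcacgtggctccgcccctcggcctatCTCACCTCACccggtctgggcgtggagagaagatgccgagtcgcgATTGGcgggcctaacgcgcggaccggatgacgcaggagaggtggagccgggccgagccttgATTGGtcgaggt
Idi1, chr13:8885431-8885605, plus strand: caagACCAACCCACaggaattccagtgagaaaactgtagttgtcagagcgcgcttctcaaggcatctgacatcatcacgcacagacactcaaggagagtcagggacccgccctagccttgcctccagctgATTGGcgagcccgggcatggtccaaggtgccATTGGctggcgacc
Mvd, chr8:122443423-122443572, minus strand: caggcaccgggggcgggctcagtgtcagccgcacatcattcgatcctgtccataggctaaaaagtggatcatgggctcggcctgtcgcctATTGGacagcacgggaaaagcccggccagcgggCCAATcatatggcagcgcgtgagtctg
Hmgcs1, chr13:119690201-119690350, plus strand: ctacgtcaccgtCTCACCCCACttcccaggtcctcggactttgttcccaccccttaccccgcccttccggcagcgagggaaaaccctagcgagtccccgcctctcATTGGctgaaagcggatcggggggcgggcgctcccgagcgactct
Srebf2, chr15:82147089-82147268, plus strand: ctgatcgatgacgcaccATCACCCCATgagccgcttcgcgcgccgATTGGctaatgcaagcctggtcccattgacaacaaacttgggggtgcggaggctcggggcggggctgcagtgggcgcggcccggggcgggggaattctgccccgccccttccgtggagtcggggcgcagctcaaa
In Msmo1 the capitals run on because a CCAAT box and the SRE-1 match ATCACTGCAC overlap. SRE-1 matches with up to 1 mismatch were in 3 of the 29 member windows (Hmgcs1 with CTCACCCCAC, Srebf2 with ATCACCCCAT, and Nsdhl) and in 1.95% of all windows. With up to 2 mismatches they were in 11 of 29 and in 22.9% of all, among them Cyp51 (ATCACCTCAG), Hsd17b7 (CTCACCTCAC) and Idi1 (ACCAACCCAC). A CCAAT box was in 21 of the 29 member windows, in 12 of the 14 of synthesis enzymes and in 37.4% of all windows. The window of Mvd holds no SRE-1 match at up to 2 mismatches. Whether SREBP or NF-Y binds at these words in these cells, and any link to the changes in level, was not tested.

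Among the 18 enzymes of synthesis, 5 rose in M2, 0 fell and 13 did not pass (median log2 fold change 0.08). The 27.8% called compare with 43.7% of all genes tested, of which 20.1% were called higher. Together they held 1349, 1369 and 1356 TPM in M2 replicates 1, 2 and 3, against 1262, 1290 and 1310 TPM in M0 replicates 1, 2 and 3. The sum was slightly higher in every M2 library, but its parts differed. The late enzymes, from squalene on, held 764, 783 and 732 TPM in M2, against 664, 678 and 676 TPM in M0, without overlap. The early enzymes held 585, 586 and 625 TPM in M2, against 598, 612 and 634 TPM in M0, where the groups overlapped. Both sums lean on abundant genes, so they do not describe each enzyme. Fdps alone held 293, 287 and 324 TPM of the early sum in M2, against 325, 325 and 334 TPM in M0. Msmo1 held 205, 214 and 214 TPM of the late sum in M2, against 171, 170 and 170 TPM in M0. Log2 fold changes were positive for 4 of 8 early and 7 of 10 late enzymes. Without M2 replicate 3, 6 of the 18 rose and 2 fell (44.4% called, against 50.9% of all genes). Without M2 replicate 1, M0 replicate 1 or M0 replicate 3, 3 of the 18 were called. Fewer of all genes were called in those fits too, with 4367 of 11132, 3794 of 11062 and 3492 of 11045.

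In the early steps, from acetyl-CoA to squalene, 2 of 8 enzymes rose (20.1% of all genes tested did). Idi1, the isomerase that makes the allylic building block of isoprenoids, had 21.6, 22.6 and 19.3 TPM in M2, against 15.6, 17.3 and 17.2 TPM in M0. All 3 M2 libraries lay above all M0 libraries, a 1.27-fold rise (log2 fold change 0.32, SE 0.081, limma adjusted p = 0.0116). Mvd, the decarboxylase just before it, had 52.0, 50.5 and 49.7 TPM in M2, against 43.4, 44.3 and 45.5 TPM in M0. This 1.14-fold rise was again without overlap (log2 fold change 0.19, SE 0.054, limma adjusted p = 0.0201), and it lost its call when M2 replicate 1 (adjusted p = 0.0664), M0 replicate 1 (0.0705), M0 replicate 2 (0.0780) or M0 replicate 3 (0.0539) was left out, over a range of 0.00464 to 0.0780 across 14 alternatives.

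The other 6 early enzymes did not pass. Hmgcs1, the synthase of HMG-CoA and a textbook SREBP2 target, averaged 64.9 ± 2.31 TPM in M2 and 62.1 ± 6.06 TPM in M0 (SD, n = 3 each), and the 95% confidence interval of its log2 fold change was -0.11 to 0.24. Acat2, the thiolase that joins acetyl-CoA units, averaged 62.8 ± 2.48 TPM in M2 and 57.1 ± 0.668 TPM in M0 without overlap (limma adjusted p = 0.0713). Its near-identical neighbour Acat3 may share reads with it, so the Acat2 level is uncertain. Fdps, which makes farnesyl diphosphate and was the most abundant enzyme, averaged 301 ± 19.8 TPM in M2 and 328 ± 5.71 TPM in M0. It missed the threshold with all libraries (limma adjusted p = 0.129) and was called lower without M2 replicate 3 (adjusted p = 0.0127, within 0.0127 to 0.383 over 14 alternatives). The same held for Pmvk, phosphomevalonate kinase, at 48.5 ± 6.32 TPM in M2 and 53.6 ± 5.86 TPM in M0 (limma adjusted p = 0.291, and 0.0462 without that library, within 0.0462 to 0.701). Mvk, mevalonate kinase, and Fdft1, squalene synthase, had log2 fold changes of -0.11 and -0.08.

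In the late steps, from squalene to cholesterol, 3 of 10 enzymes rose (20.1% of all genes tested did). Cyp51, the lanosterol demethylase, had 71.4, 74.2 and 69.6 TPM in M2, against 50.2, 55.8 and 56.2 TPM in M0. The lowest M2 library stood well above the highest M0 library, a 1.33-fold rise (log2 fold change 0.40, SE 0.063, limma adjusted p = 0.00105). Its model lies on mm10 chromosome 5, 4080674 to 4104697, minus strand. Msmo1, the methylsterol oxidase that acts later in the pathway, had 205, 214 and 214 TPM in M2, against 171, 170 and 170 TPM in M0. The M0 libraries barely differed, and the rise was 1.24-fold (log2 fold change 0.30, SE 0.049, limma adjusted p = 0.00128).

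Hsd17b7, the keto reductase of sterol demethylation, had 34.4, 37.4 and 28.8 TPM in M2, against 24.4, 28.0 and 27.0 TPM in M0. M2 replicate 3 was only just above the M0 libraries, and the 1.27-fold rise (log2 fold change 0.33, SE 0.098, limma adjusted p = 0.0251) was larger without it (log2 fold change 0.43, adjusted p = 0.00129). It did not pass with any of 4 other libraries left out, namely M2 replicate 1 (adjusted p = 0.0666), M2 replicate 2 (0.0755), M0 replicate 1 (0.0922) and M0 replicate 3 (0.0594), within 0.000320 to 0.0922 over 14 alternatives. Nsdhl, the dehydrogenase that works between Msmo1 and Hsd17b7, averaged 40.7 ± 2.87 TPM in M2 and 37.8 ± 1.28 TPM in M0 and did not pass (limma adjusted p = 0.248).

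Of the other late enzymes, Sc5d, a sterol desaturase, was nearest the threshold, with 68.5, 68.8 and 60.0 TPM in M2, against 60.6, 53.2 and 57.4 TPM in M0. The groups overlapped through M2 replicate 3, and the adjusted p was 0.0540 with all libraries and 0.00695 without that library (limma, 0.00695 to 0.197 over 14 alternatives). Sqle, squalene epoxidase and a rate-limiting step, averaged 233 ± 11.9 TPM in M2 and 219 ± 7.85 TPM in M0, with an interval of -0.05 to 0.22 for its log2 fold change. Lss, which closes squalene epoxide to lanosterol, had an interval of -0.11 to 0.23 and Dhcr7, the reductase of the last step, one of -0.22 to 0.09. Ebp, a sterol isomerase, and Tm7sf2, a sterol reductase, had log2 fold changes of -0.05 and -0.12. No enzyme's interval reached 1 in size on the log2 scale.

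**Figure D2:**
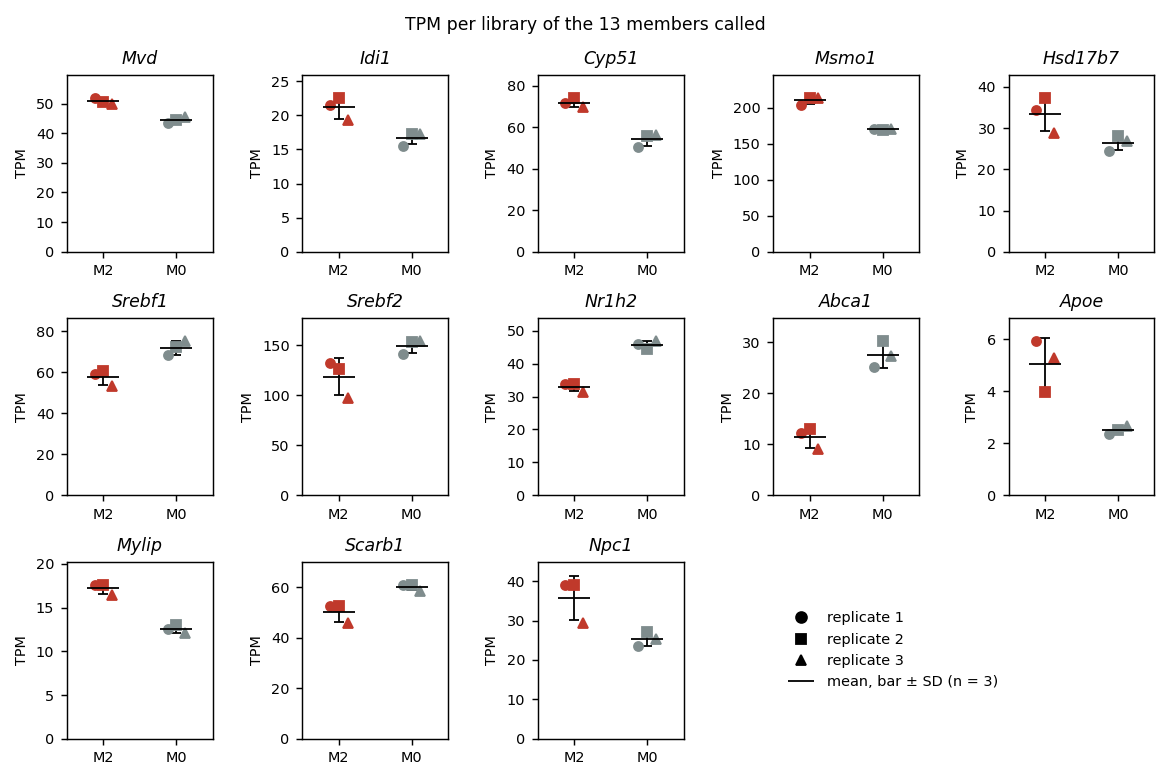
TPM per library (vertical axes, each from 0) of the 13 members called, M2 in red and M0 in grey, with a symbol per replicate number and the mean ± SD of 3 libraries in black. The groups do not overlap in any panel, and the M2 triangles (replicate 3) are the lowest M2 points in 11 of the 13 panels, all but Msmo1 and Apoe.

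The genes of the SREBP factors themselves were lower in M2. Srebf2, which encodes SREBP2, had 132, 126 and 97.3 TPM in M2, against 141, 153 and 154 TPM in M0. M2 replicate 3 was far below the rest, and the fall (log2 fold change -0.34, SE 0.107, limma adjusted p = 0.0288) was smaller without it (log2 fold change -0.21, adjusted p = 0.0146). Without M0 replicate 2 or M0 replicate 3 it did not pass (adjusted p = 0.0802 and 0.0878, within 0.00561 to 0.0878 over 14 alternatives). Srebf1, which encodes SREBP1 and serves fatty acid genes above all, had 59.0, 60.5 and 53.2 TPM in M2, against 68.4, 72.1 and 75.1 TPM in M0. All M2 libraries were below all M0 libraries, a fall of 0.32 on the log2 scale (SE 0.067, limma adjusted p = 0.00509). The file uses 1 model per gene, so the SREBP1a and SREBP1c forms are not separated. The Srebf1 model overlaps Rai1, on the other strand, over 112 bases.

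The sensing machinery did not pass. Insig1, itself a rapid SREBP target, had 66.4, 68.0 and 60.9 TPM in M2, against 64.3, 64.8 and 64.8 TPM in M0, and its log2 fold change of 0.01 had an interval of -0.12 to 0.14. Insig2 had 37.7, 42.9 and 43.0 TPM in M2, against 36.9, 40.7 and 38.2 TPM in M0 (limma adjusted p = 0.331). Scap, the escort protein, had 17.4, 19.0 and 14.6 TPM in M2, against 13.9, 15.4 and 15.2 TPM in M0. M2 replicates 1 and 2 lay above all M0 libraries and replicate 3 among them, with an adjusted p of 0.182 with all libraries and 0.0112 (higher) without replicate 3 (limma, 0.00854 to 0.478 over 14 alternatives). Within a library, the ratio of Srebf2 to Insig1 was 1.99, 1.85 and 1.60 in M2 replicates 1, 2 and 3, against 2.19, 2.36 and 2.37 in M0, so M2 replicate 3 lay farthest from M0. It averaged 1.82 ± 0.201 in M2 and 2.31 ± 0.102 in M0 (SD, n = 3 each; two-sided exact permutation p = 0.1, the smallest that 3 against 3 allows; 0.125 adjusted over the 5 ratios compared).

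Of the receptors on the efflux side, LXR beta was the abundant form and was lower in M2. Nr1h2 had 33.7, 33.9 and 31.5 TPM in M2, against 45.9, 44.5 and 46.8 TPM in M0. The groups were far apart, with a fall of 0.46 on the log2 scale (SE 0.058, limma adjusted p = 0.000352). Nr1h3, LXR alpha, lay near the floor at 1.20, 1.39 and 1.37 TPM in M2, against 0.848, 0.843 and 1.01 TPM in M0, from 109 reads over M2 and 68 over M0. Every M2 library was above every M0 library, but the difference did not pass (log2 fold change 0.29, SE 0.104, limma adjusted p = 0.0505, and 0.0210 to 0.159 over 13 alternatives). It was called higher under 5 of these, among them limma-voom on the recovered reads, with a log2 fold change of 0.58 (adjusted p = 0.0345), and the log2 fold change was 0.51 with a pseudocount of 0.1 and 0.12 on the authors' log2-scale values. The ratio of Nr1h3 to Nr1h2 averaged 0.0400 ± 0.00402 in M2 and 0.0196 ± 0.00165 in M0, without overlap (SD, n = 3 each; exact permutation p = 0.1, 0.125 adjusted over 5 ratios).

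The 2 ABC transporters of efflux were unequal. Abca1, which loads cholesterol onto lipid-poor apolipoprotein A-I, had 12.1, 13.02 and 8.97 TPM in M2, against 25.0, 30.2 and 27.3 TPM in M0. The highest M2 library lay far below the lowest M0 library, and mean TPM was 2.42-fold lower in M2 (log2 fold change -1.22, SE 0.128, limma adjusted p = 0.000136). Reads were 1593 to 2001 per M2 library and 3697 to 4668 per M0 library. The model, on mm10 chromosome 4, 53030789 to 53159895, minus strand, is 10208 bases long, the longest of the members, and without M2 replicate 3 the log2 fold change was -1.07. Abcg1, which passes cholesterol on to mature HDL, had 40.1, 41.2 and 34.9 TPM in M2, against 40.6, 45.4 and 43.7 TPM in M0, so the groups overlapped and the difference did not pass (log2 fold change -0.16, interval -0.33 to 0.02, limma adjusted p = 0.133). The ratio of Abca1 to Abcg1 was 0.302, 0.316 and 0.257 in M2, against 0.618, 0.665 and 0.626 in M0 (exact permutation p = 0.1, 0.125 adjusted over 5 ratios).

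Of the other members with a role in efflux, 2 rose. Mylip, the ubiquitin ligase IDOL that sends lipoprotein receptors to degradation, had 17.6, 17.6 and 16.4 TPM in M2, against 12.6, 13.1 and 12.1 TPM in M0. The groups were well apart, a 1.37-fold rise (log2 fold change 0.42, SE 0.070, limma adjusted p = 0.00148). Apoe, the apolipoprotein that macrophages release with cholesterol, had 5.92, 3.97 and 5.28 TPM in M2, against 2.35, 2.50 and 2.67 TPM in M0, a 2.02-fold rise at a low level (log2 fold change 0.77, SE 0.130, limma adjusted p = 0.00155). On the authors' log2-scale values its log2 fold change was 0.36 (limma adjusted p = 0.000920, within 0.000575 to 0.0105 over 13 alternatives). It rested on 109, 71 and 109 reads in M2 and 44, 45 and 42 in M0. Its chromosomal neighbour Apoc1 was below the filter, with 1 read over the M2 libraries and 6 over the M0 libraries, and was not tested. Lpcat3, which remodels phospholipids, had a log2 fold change of 0.00 with an interval of -0.12 to 0.12. Pltp, the phospholipid transfer protein, averaged 12.7 ± 2.34 TPM in M2 and 13.8 ± 1.37 TPM in M0 (log2 fold change -0.11, limma adjusted p = 0.484). Without M2 replicate 3, its highest M2 library at 15.3 TPM, the log2 fold change was -0.24 and still did not pass (adjusted p = 0.0514, within 0.0514 to 0.977 over 14 alternatives). The Pltp model overlaps that of the abundant lysosomal gene Ctsa on the other strand over 1515 bases, where reads cannot be assigned with certainty. Of the 8 LXR and efflux members tested, 2 rose, 2 fell and 4 did not pass, so 50% were called, against 43.7% of all genes tested.

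**Figure D3:**
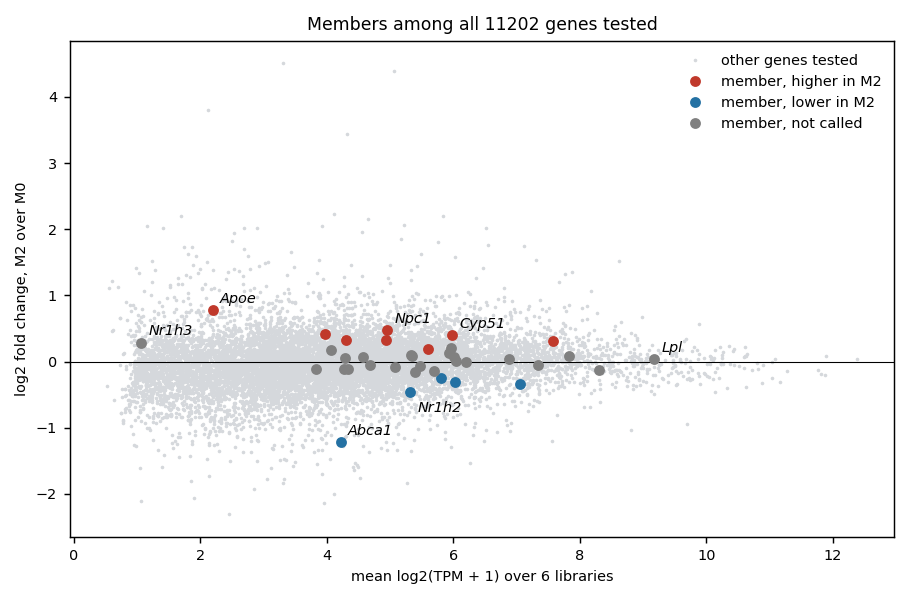
Mean log2(TPM + 1) over 6 libraries (horizontal axis) against the log2 fold change of M2 over M0 (vertical axis) for all 11202 genes tested, with members in red (called higher), blue (called lower) or dark grey (not called). Most members lie in the middle of the cloud at medium to high level, and Abca1 and Apoe are the lowest and highest members.

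For uptake and lipolysis, Scarb1, the HDL receptor SR-BI, was lower in M2, with 52.8, 52.4 and 45.8 TPM in M2, against 60.9, 61.0 and 58.6 TPM in M0. The groups did not overlap (log2 fold change -0.26, SE 0.067, limma adjusted p = 0.0141), and the call was lost without M0 replicate 2 (adjusted p = 0.0551, within 0.00273 to 0.0551 over 14 alternatives). Lpl, lipoprotein lipase, was the most abundant member by TPM, with 560, 619 and 577 TPM in M2, against 568, 583 and 562 TPM in M0. Its groups overlapped, and the log2 fold change of 0.04 had an interval of -0.10 to 0.17.

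Of the proteins that move cholesterol out of the lysosome, the membrane transporter NPC1 and its luminal partner NPC2, only the first was called. Npc1 had 39.1, 39.01 and 29.4 TPM in M2, against 23.5, 27.0 and 25.4 TPM in M0. M2 replicate 3 was the lowest M2 library and still above M0, and the rise (1.42-fold, log2 fold change 0.48, SE 0.111, limma adjusted p = 0.00824) was larger without it (log2 fold change 0.61, adjusted p = 0.000135, within 7.89e-05 to 0.0363 over 14 alternatives). Its end overlaps Rmc1, on the other strand, over 276 bases. Npc2 had 159, 154 and 161 TPM in M2, against 174, 160 and 160 TPM in M0 (log2 fold change -0.06, interval -0.18 to 0.07). The ratio of Npc1 to Npc2 was 0.245, 0.254 and 0.183 in M2 replicates 1, 2 and 3, against 0.135, 0.169 and 0.159 in M0, so M2 replicate 3 lay nearest M0. It averaged 0.227 ± 0.0388 in M2 and 0.154 ± 0.0174 in M0, without overlap (SD, n = 3 each; exact permutation p = 0.1, 0.125 adjusted over 5 ratios). Stard4, a soluble sterol carrier and SREBP target, and Soat1, the enzyme that stores cholesterol as esters, did not pass, with log2 fold changes of 0.07 and 0.04. Ch25h, which makes the oxysterol 25-hydroxycholesterol, was hardly detected, with 5 reads over M2 and 1 over M0, and was not tested.

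Transcript length moved with M2 replicate 3 among the members too. Of the 12 members tested with a model above 4000 bases, 12 were lower in M2 replicate 3 than the mean of M2 replicates 1 and 2, by a median of 0.19 on log2(TPM + 1), and of the 11 with a model under 2000 bases 2 were. Without that library 17 of 37 members were called (45.9%, against 50.9% of all genes), 10 higher and 7 lower. The additional calls were Fdps and Pmvk (lower) and Sc5d and Scap (higher). limma-voom on the reads recovered from TPM called 17 members as well (47.8% of all genes), 12 higher and 5 lower. With the trend on length taken out of every library, a setting chosen after the data were seen, 22 of 37 were called (59.5%, against 55.6% of all genes), 15 higher and 7 lower.

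**Figure D4:**
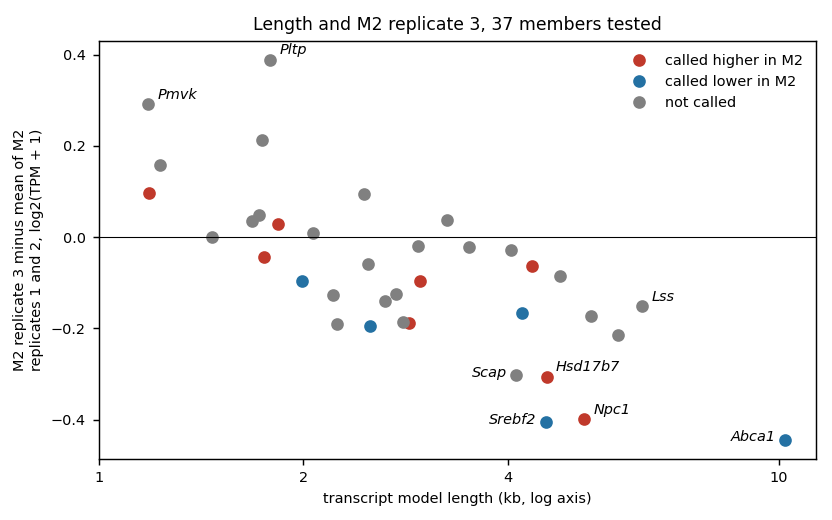
Length of the transcript model (horizontal axis, kb, log scale) against the difference of M2 replicate 3 from the mean of M2 replicates 1 and 2 on log2(TPM + 1) (vertical axis) for the 37 members tested, coloured by call. All 12 members above 4 kb lie below 0, down to -0.44 for Abca1, and 9 of 11 below 2 kb lie above it.

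In the authors' deposited table, where a positive fold change means a higher M2 level, 14 members had an adjusted p under 0.05, 9 higher and 5 lower (26.4% of the 19143 genes with a fold change there). The filter of 1 TPM was not applied to those 19143 genes, so that share is not comparable with the 43.7% of genes tested here. The 14 members held all 13 called here, in the same direction, and Sc5d. In the authors' deposited table the log2 fold change was -1.24 for Abca1, 1.07 for Apoe and 0.54 for Npc1.

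Other genes of the pathway, 71 in 6 lists, gave 58 tested, of which 8 rose and 16 fell. The 41.4% called were near the 43.7% of all genes tested, of which 20.1% rose and 23.7% fell. Of the 16 genes tested from a list of intracellular sterol carriers, 0 rose and 8 fell, with a median log2 fold change of -0.21. That list also holds Lipa, Nceh1 and Soat2, enzymes of cholesterol esters rather than carriers, and Soat2 was among the genes that fell. Without M2 replicate 3, 9 genes of the list fell and 1 (Lipa) rose. Osbpl8, an oxysterol-binding protein relative at contact sites of the endoplasmic reticulum, averaged 99.2 ± 13.2 TPM in M2 and 158 ± 7.28 TPM in M0 (SD, n = 3 each; limma adjusted p = 0.000550). Stard5, a soluble carrier, averaged 6.85 ± 0.374 TPM in M2 and 10.2 ± 0.206 TPM in M0 (adjusted p = 0.000974). Among genes of SREBP processing and control, 3 of 14 rose and 2 fell. Tmem97, a sterol-responsive membrane protein that binds NPC1, had 107 to 108 TPM in M2 and 65.0 to 68.8 TPM in M0 (1.59-fold, limma adjusted p = 2.53e-05), and Erlin1, a restraint on SREBP in the endoplasmic reticulum, rose 1.35-fold.

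LXR partners and further LXR targets were mixed as well, with 1 of 9 tested higher and 2 lower. Over all genes tested, 20.1% were called higher and 23.7% lower, the shares to set beside the count of each list here. Arl4c, a small GTPase gene known as an LXR target, averaged 91.0 ± 5.62 TPM in M2 and 57.8 ± 2.81 TPM in M0 (SD, n = 3 each; limma adjusted p = 0.000106). Abca7, a close relative of Abca1, averaged 5.74 ± 1.23 TPM in M2 and 8.99 ± 0.257 TPM in M0 (adjusted p = 0.00716). Of the RXR partners of LXR, Rxra was also lower, at 8.64 TPM in M2 and 11.1 TPM in M0. The more abundant Rxrb averaged 36.1 TPM in M2 and 36.4 TPM in M0 and did not pass (limma adjusted p = 0.886). Of the 6 oxysterol genes, Cyp7b1, Cyp46a1 and Sult2b1 were below the filter. The 3 tested were all called, 1 higher and 2 lower (43.7% of all genes tested were called), too few to describe the list. Gpr183, the receptor of a dihydroxy-oxysterol that guides immune cells, had 73.7, 69.6 and 67.1 TPM in M2, against 26.1, 25.7 and 23.7 TPM in M0. This 2.79-fold rise (limma adjusted p = 1.48e-06) was larger than that of any member. Cyp27a1, which makes the LXR ligand 27-hydroxycholesterol, averaged 19.5 ± 1.43 TPM in M2 and 28.3 ± 0.291 TPM in M0 (adjusted p = 0.000470), and Hsd3b7 fell too. In the isoprenoid branch 2 of 12 rose and 1 fell. Pdss1, which builds the tail of ubiquinone, rose 1.87-fold (limma adjusted p = 4.35e-05) and Rabggtb, a subunit of the enzyme that prenylates RAB proteins, 1.22-fold. In lipoprotein uptake 1 of 4 tested rose, Lrpap1, and 1 fell, Lrp1, whose levels were 121, 114 and 68.9 TPM in M2, against 138, 160 and 148 TPM in M0. Lrp1, Osbpl8 and Abca7, all with long transcripts, were called lower without M2 replicate 3 too.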

How the data were processed

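RNA sequencing libraries were made from poly(A) RNA, 3 of M2 and 3 of M0, grouped and numbered by the sample titles. The submitters' processing notes name STAR 2.7.5a, HOMER 4.11.1, DESeq2, bcl2fastq and mm10, without roles. The sources used here give neither the annotation nor the use of strand. Per the file headers, the authors deposited TPM for 25124 genes, each gene having 1 transcript model of stated length. A deposited comparison table holds log2-scale normalized values for 24421 genes, a scale read from their range since the header names no transform, and the authors' own fold changes on a log2 scale, each with a p-value and an adjusted one.

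Genes with at least 1 TPM in at least 3 libraries were fitted with limma 3.58.1 (R 4.3.3) on log2(TPM + 1) by group, with a trend of variance on mean and Benjamini-Hochberg adjustment over all genes tested. On this scale the changes of weakly expressed genes come out too small. Neither table holds counts, so no count model was the main test. TPM times length came in whole steps (tolerance 0.1 read, met by 100.0% of the values with enough decimals), which gave the reads printed. Same-group libraries differed by more than sampling noise (chi-square per degree of freedom 2.24 to 20.9), so none is a copy. Confidence intervals are at 95%. Ratios were compared by two-sided exact permutation in scipy 1.17.1. Figures used matplotlib 3.10.9 and Python 3.11.15. The fit was also run on simulated reads with changes of at least 2-fold and no length trend. Most calls here are smaller, so that run does not bear on them. Members and lists were chosen with earlier results of these data known. Every member is accounted for, with full values for those called and for the SREBP and LXR genes, and up to 2 called genes of lowest adjusted p per further list. Members nearest the threshold, the genes that complete a count (Rxra, Hsd3b7, Lipa), Nceh1, Soat2, the untested oxysterol genes and Rxrb were named after their values were seen. Alternatives were a pseudocount of 0.1, no filter, at least 5 TPM, median-ratio scaling, limma-voom on the reads, the authors' values, the replicate number as a block, each library left out and, added after the data were seen, the length trend removed.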

Additional observations from a re-analysis of the deposited data

How the results depend on the processing

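Of the 13 members called, 9 (Abca1, Apoe, Cyp51, Idi1, Msmo1, Mylip, Npc1, Nr1h2 and Srebf1) passed in the same direction under all 14 alternatives that gave a value, where Apoe had none with at least 5 TPM. The other 4 lost their call under some: Mvd and Scarb1 only with a library left out, and Hsd17b7 and Srebf2 also without the filter. With the length trend removed, 22 members were called and 15 were higher, with 11 synthesis enzymes called, 9 higher and 2 lower, and the cause was not tested. With at least 5 TPM, 1 LXR or efflux member was higher, because Apoe was no longer tested. Leaving out each library in turn gave 10 to 17 members called, 6 to 10 higher and 3 to 7 lower, and 3 to 8 synthesis enzymes, 3 to 6 higher and 0 to 2 lower. The lowest enzyme count came without M2 replicate 1, M0 replicate 1 or M0 replicate 3, the highest without M2 replicate 3, and the 3 lower members without M0 replicate 2. The number of all genes called was 3492 to 5673 over those fits. Median-ratio scaling and limma-voom on the reads called 16 and 17 members, and 5190 and 5359 of all 11202 genes. Acat2, Nr1h3 and Sc5d were added by both, all higher. With the replicate number as a block, 13 members and 4870 of all genes were called, so no member's call changed. Same-numbered libraries deviated together in 1 of 3 pairs (correlations -0.03, 0.21 and 0.03 for numbers 1, 2 and 3), and only number 2 correlated best with its own number, so the numbers were not taken to pair the libraries. Depth limits Apoe, Nr1h3, Apoc1 and Ch25h, each under 300 reads per group.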
